A study of Mus musculus with 4 samples.

Results

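The visual cycle is the set of reactions that returns the light-bleached chromophore of opsins to its cis form. In photoreceptors, all-trans-retinal is cleared from the disc membrane and reduced to retinol. In the pigment epithelium, retinol is esterified, isomerised and oxidised back to cis-retinal, and Müller glia carry retinoids for cones. The expression of 10 genes of this cycle is described here, namely Rdh8, Rdh12, Abca4 and Rbp3, which act in or beside photoreceptors, Rlbp1, Rdh10 and Rdh11, which act in glia and pigment epithelium or more widely, and Rdh5, Lrat and Rpe65, which are known best from pigment epithelium. The genes were named from their known function and matched by symbol, and all 10 were found, each on 1 row, among 21828 genes left after summing rows of 1 symbol and leaving out small RNAs.

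Retinas of ICR mice (labelled slc:ICR) at postnatal day 12 were dissociated, stained for Cd73, a surface enzyme of rods and their precursors encoded by Nt5e, and sorted into a positive fraction (Cd73P) and a negative one (Cd73N). Each fraction was taken from wild-type retina and from retina labelled Ezh2-cKO, in which a floxed Ezh2 allele was crossed with Dkk3-Cre, a Cre expressed in retinal progenitor cells from an early embryonic stage, with normal littermates as controls. Ezh2 is the methyltransferase of Polycomb repressive complex PRC2. Poly(A) RNA gave 4 libraries, 1 for each group, so no difference given here has a replicate check, no p-value was computed, and the SE (standard error) printed beside a ratio reflects counting within the libraries alone. Levels are FPKM, fragment counts normalised for exon length and for mapped fragments. Differences are log2 ratios of FPKM + 1, counted as past the threshold at 1.5-fold, the study's own cutoff (0.58 on the log2 scale). The study does not state an added 1, which shrinks the ratios of low genes, so calls here can differ from its own. The 4 comparisons draw on the same 4 libraries and are not independent of each other.

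The labels were checked first. Ezh2 stood at 14.1 FPKM (wild type) and 15.9 FPKM (labelled Ezh2-cKO) within Cd73N, and at 5.38 and 3.45 FPKM within Cd73P, so its gene-level value was not lower in Cd73N. A gene-level value sums all exons and does not show whether the floxed part was lost, and the knockout libraries are therefore named by their label throughout. Nt5e was at 0.84 and 0.61 FPKM in Cd73N and at 125 and 123 FPKM in Cd73P. All 12 rod markers with usable values were higher in Cd73P in each genotype. All 10 cone markers and 12 of 14 Müller glia markers were at least 1.5-fold higher in Cd73N wild type. The genotypes also differed in Xist (47.0 and 52.2 FPKM in wild type, 95.6 and 240 in the others) and in 4 summed Y-linked genes (26.8 and 27.9 FPKM against 0.50 and 0.72), so sex and genotype cannot be told apart.

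Sequence upstream of the gene starts is shown for the 4 photoreceptor genes, for Rlbp1 as the member with the widest fold in favour of Cd73N, and for Rpe65, which shares a motif with Abca4 and Rbp3. Each window is the 250 bases before the start in the deposited tables, on mm9, written 5′ to 3′ on the strand of the gene. Capitals mark TAATCC, the core recognised by the photoreceptor factors Crx and Otx2, or its reverse complement GGATTA.
Abca4, chr3:121747128-121747377, plus strand: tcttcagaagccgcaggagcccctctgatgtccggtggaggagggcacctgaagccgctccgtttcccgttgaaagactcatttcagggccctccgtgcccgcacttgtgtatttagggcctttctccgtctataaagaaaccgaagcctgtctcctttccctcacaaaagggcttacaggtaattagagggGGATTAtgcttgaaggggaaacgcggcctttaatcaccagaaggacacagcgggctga
Rbp3, chr14:34766958-34767207, plus strand: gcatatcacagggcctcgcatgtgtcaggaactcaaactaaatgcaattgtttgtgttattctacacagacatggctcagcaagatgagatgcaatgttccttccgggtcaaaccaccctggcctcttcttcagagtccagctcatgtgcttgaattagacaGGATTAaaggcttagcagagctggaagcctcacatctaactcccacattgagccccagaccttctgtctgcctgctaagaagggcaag
Rpe65, chr3:159261895-159262144, plus strand: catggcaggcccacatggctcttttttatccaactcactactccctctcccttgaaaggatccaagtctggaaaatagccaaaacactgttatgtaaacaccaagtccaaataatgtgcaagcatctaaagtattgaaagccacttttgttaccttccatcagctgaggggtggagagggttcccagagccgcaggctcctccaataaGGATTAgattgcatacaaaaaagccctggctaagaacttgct
Rdh12, chr12:80309651-80309900, plus strand: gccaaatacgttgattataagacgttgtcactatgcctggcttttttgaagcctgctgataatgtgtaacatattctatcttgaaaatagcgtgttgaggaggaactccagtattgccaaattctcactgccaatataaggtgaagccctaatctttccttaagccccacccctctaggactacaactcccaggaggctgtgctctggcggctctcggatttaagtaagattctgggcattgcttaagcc
Rdh8, chr9:20622698-20622947, plus strand: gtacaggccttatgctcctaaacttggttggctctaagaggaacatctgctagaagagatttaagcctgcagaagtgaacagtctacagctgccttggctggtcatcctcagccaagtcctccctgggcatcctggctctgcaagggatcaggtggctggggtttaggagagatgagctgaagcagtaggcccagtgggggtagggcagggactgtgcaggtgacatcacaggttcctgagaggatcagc
Rlbp1, chr7:86531914-86532163, minus strand: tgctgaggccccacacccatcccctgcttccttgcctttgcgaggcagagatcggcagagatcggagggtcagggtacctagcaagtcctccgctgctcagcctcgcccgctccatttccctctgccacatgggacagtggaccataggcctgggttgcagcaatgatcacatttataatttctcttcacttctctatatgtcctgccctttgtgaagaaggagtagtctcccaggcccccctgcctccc
The core was found on the minus strand of the gene in Abca4, Rbp3 and Rpe65, beginning 58, 88 and 42 bases before the start. These were 3 of 10 members, against 6.16% of 19167 promoter windows of the same length searched on both strands. TGCTGA, a half-site of the rod factor Nrl, was found in Rbp3, Rdh12 and Rlbp1, again 3 of 10, against 13.9% of windows, and overlapped no Crx core. A match of 6 letters describes the sequence and shows no binding, and the windows of Rdh8, Rdh10, Rdh11, Rdh5 and Lrat held neither string. The GENCODE annotation sets some gene starts elsewhere, farther upstream for Rdh5, Rdh10, Rdh11 and Abca4 and downstream for Rpe65 and, slightly, Lrat. Windows and distances taken from those starts would differ.

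The fractions of wild type were compared first, to see in which cells each step of the cycle was transcribed. Rdh12, Rdh8, Abca4, Rbp3 and Rpe65 were at least 1.5-fold higher in Cd73P and Rlbp1 alone was that much lower. Of these calls that of Rpe65 was lost with a pseudocount of 5 (log2 ratio 0.38) and with a 2-fold threshold, and Lrat was added with a pseudocount of 0.1 (1.40). Among all genes, 9.07% were higher and 27.9% lower in Cd73P. Leaving out genes below 1 FPKM in both libraries gave 15.4% and 45.9%. The median log2 ratio was 0.64 over the 10 members and -0.05 over all genes. In a sorted bulk sample, fewer cells of a type and less RNA per cell cannot be told apart.

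Rdh12 encodes the retinol dehydrogenase of the photoreceptor inner segment. Its FPKM was 27.6 (wild type) and 26.8 (Ezh2-cKO) for Cd73N cells and 411.8 and 533 for Cd73P cells (chromosome 12, 80309901 to 80323648, mm9, protein coding like all members). The log2 ratio of Cd73P over Cd73N was 3.85 (SE 0.040) for wild type and 4.26 (SE 0.035) for Ezh2-cKO, the widest gap in favour of Cd73P among the members. Rdh8, which reduces all-trans-retinal in the outer segment, had 12.0 and 16.6 FPKM among Cd73N cells and 78.3 and 129 FPKM among Cd73P cells, wild type first as in the pairs that follow (chromosome 9, 20622948 to 20630607). Its wild-type log2 ratio was 2.61 (SE 0.066). Together these 2 genes held 76.1% (Rdh12) and 14.5% (Rdh8) of the FPKM summed over the 5 Rdh members in Cd73P wild type.

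Abca4 encodes the disc-rim transporter that moves retinal adducts to the cytoplasmic side of the membrane. It was at 19.7 and 20.8 FPKM in Cd73N and at 149 and 179.5 FPKM in Cd73P (chromosome 3, 121747378 to 121882979), a wild-type log2 ratio of 2.86 (SE 0.026). Rbp3, the interphotoreceptor retinoid-binding protein, was the most abundant member in 3 of the 4 libraries, with 311 and 308 FPKM in Cd73N and 933 and 830 FPKM in Cd73P (chromosome 14, 34767208 to 34777402). Its ratio of 1.58 (SE 0.0073) was the smallest of the 4 photoreceptor genes, and its Cd73N level lay at the 99.1 percentile of that library. Rbp3 is made by cones as well as rods, and the 10 cone markers summed to 4721 FPKM in Cd73N wild type and 422 FPKM in Cd73P wild type. The 12 rod markers with usable values summed to 2116 FPKM in Cd73N wild type and 21602 FPKM in Cd73P wild type. The part of cones or of rods in the Cd73N level of Rbp3 was not tested.

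**Figure D1:**
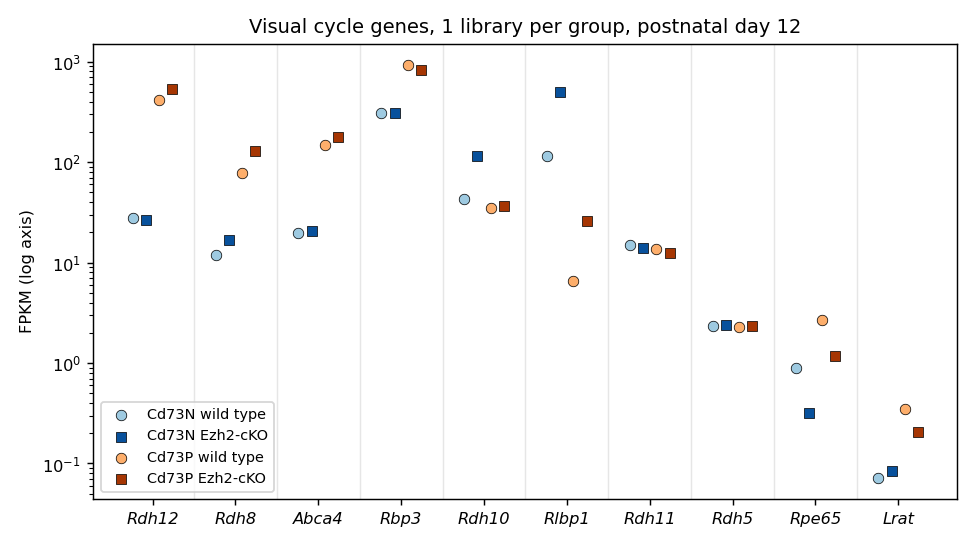
FPKM of the 10 visual cycle genes on a log axis, 1 point for each of the 4 libraries (circles wild type, squares Ezh2-cKO, blue Cd73N, orange Cd73P). Rdh12, Rdh8, Abca4 and Rbp3 are higher in Cd73P libraries, Rlbp1 in Cd73N libraries, and Rdh11 and Rdh5 sit at nearly 1 level, 12.6 to 15.1 and 2.27 to 2.41 FPKM.

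Rlbp1 showed the opposite division. It encodes CRALBP, which holds cis-retinoids in Müller glia and pigment epithelium, and had 115 FPKM among wild-type Cd73N cells and 6.54 FPKM among wild-type Cd73P cells (chromosome 7, 86519756 to 86531913), a log2 ratio of -3.94 (SE 0.060). Cd73P thus held 5.70% of the Rlbp1 level of Cd73N (wild type), or 5.15% (Ezh2-cKO). The median of the same share over 14 Müller glia markers was 8.52% and 3.74%. The Rlbp1 share was below that median in wild type and above it in Ezh2-cKO. In wild type the marker shares ran from 3.02% for Abca8a to 181% for Slc16a1. A range this wide places Rlbp1 only loosely.

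Rdh10 and Rdh11 did not divide between the wild-type fractions. Rdh10, which oxidises retinol and also feeds retinoic acid synthesis, was at 42.6 FPKM in Cd73N and 35.2 in Cd73P wild type (chromosome 1, 16095963 to 16122631), with a log2 ratio of -0.27 (SE 0.043) that became 0.04 under median scaling and 0.15 under sum scaling. Rdh11, a broadly expressed retinal reductase next to Rdh12 on chromosome 12 (80276538 to 80292806), was at 15.1 and 13.95 FPKM among Cd73N cells and at 13.7 and 12.6 FPKM among Cd73P cells. All 4 values of Rdh11 lay within the threshold of each other, in contrast to its neighbour Rdh12. No 36-base word of the longest annotated Rdh11 or Rdh12 transcript occurred in a transcript of another protein-coding gene. Among protein-coding transcripts, a perfectly matched read could thus be placed on 1 of them. The rest of the genome was not searched.

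The genes known best from pigment epithelium were low in every library. Rdh5, the cis-retinol dehydrogenase of pigment epithelium, was at 2.35 and 2.41 FPKM (Cd73N) and at 2.27 and 2.33 FPKM (Cd73P) (chromosome 10, 128350647 to 128356353), and 18.2% of the words of its longest transcript also occurred in transcripts of Bloc1s1, its neighbour. Rpe65, the isomerohydrolase, was at 0.89 and 0.32 FPKM in Cd73N and at 2.66 and 1.17 FPKM in Cd73P (chromosome 3, 159262145 to 159288271), a wild-type log2 ratio of 0.95 (SE 0.13) with the higher level in Cd73P. Lrat, which esterifies retinol, stayed below 1 FPKM at 0.071 and 0.084 in Cd73N and 0.35 and 0.20 in Cd73P (chromosome 3, 82696504 to 82707896). The position of its row overlaps that of a RIKEN transcript, and whether their reads could be told apart was not checked. The other 8 members were at 1 FPKM or more in every library, whereas Rpe65 was above that level in Cd73P alone.

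Markers of pigment epithelium were read beside Rpe65. Of 16 markers in the tables, 7 reached 1 FPKM in 1 of the wild-type libraries, and 5 of these were higher and 2 lower in Cd73P. Dct, a melanin enzyme, was at 0.88 FPKM in Cd73N and 11.3 in Cd73P wild type, and Pmel, a melanosome protein, was at 0.65 and 8.34 FPKM. Ttr, the retinol carrier transthyretin, was at 6.30 and 32.7 FPKM. Trpm3 and the peropsin gene Rrh went the other way, with log2 ratios of -2.10 and -2.76. The summed level of the 16 markers was 34.8 and 102 FPKM in Cd73N and 64.8 and 57.3 FPKM in Cd73P. Trpm3 (11.3 and 50.02 FPKM) and Rrh (12.4 and 39.9 FPKM) made up most of each Cd73N sum. The higher Cd73N sum in Ezh2-cKO therefore came mainly from this pair, not from the list as a whole. Best1 was at most 0.21 FPKM in any library, and only Mlana was listed at 0, in 1 library. The part of pigment epithelium in the Rpe65 values was not tested.

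**Figure D2:**
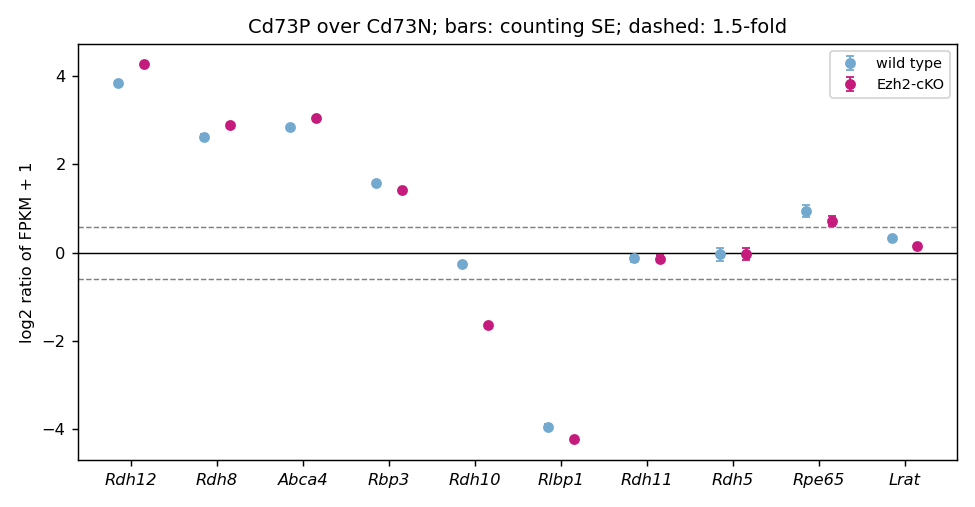
Log2 ratio of FPKM + 1, Cd73P over Cd73N, for each visual cycle gene in wild type (blue) and in the libraries labelled Ezh2-cKO (pink), with the counting SE as bars and dashed lines at 1.5-fold. Rdh12 reaches 3.85 and 4.26, Rlbp1 -3.94 and -4.23, and Rdh10 moves from -0.27 to -1.64.

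In the libraries labelled Ezh2-cKO the same 5 genes were higher in Cd73P, and 2 genes, Rlbp1 and Rdh10, were lower. Over all genes 8.4% were higher and 29.1% lower, or 13.8% and 45.6% once genes below 1 FPKM were left out. Rdh10 was the only member whose place changed. Its log2 ratio of Cd73P over Cd73N went from -0.27 in wild type to -1.64 (SE 0.032) in the libraries labelled Ezh2-cKO. The log2 ratios of Rdh8 (2.88), Abca4 (3.05), Rbp3 (1.43) and Rlbp1 (-4.23) were each within 0.29 of their wild-type values.

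Genotypes were next compared within Cd73N, the fraction that holds glia, cones and inner retinal neurons. Rlbp1 and Rdh10 were higher in the library labelled Ezh2-cKO and no member was lower at 1.5-fold, against 7.18% and 1.71% of all genes, or 11.6% and 2.87% once genes below 1 FPKM were left out. Rlbp1 went from 115 to 499 FPKM, 4.35-fold, and became the most abundant member there, ahead of Rbp3. Rdh10 went from 42.6 to 115 FPKM, 2.69-fold, with a log2 ratio of 1.41 (SE 0.031). Among the 5 Rdh members, the part held by Rdh10 thus went from 42.8% to 65.7% of their summed FPKM in Cd73N.

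Müller glia markers moved with these values. All 14 markers compared were at least 1.5-fold higher there, at a median of 2.09 (log2 ratio) and a range of 1.01 to 3.16, and their summed level over 15 markers went from 1445 to 6254 FPKM. The log2 ratio of Rlbp1, 2.11, lay 0.02 above that median, and Rdh10 lay 0.69 below it but inside the range. Rhbg was listed at 0 in Cd73N wild type. The study had named Apoe, Dkk3, Dbi and Slc1a3 of this list, and Rlbp1, among its top upregulated genes in Cd73N. Their higher values here are therefore no independent check. The part of glial content in the Rlbp1 and Rdh10 values was not tested.

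The other members differed little in Cd73N. Rdh8 had a log2 ratio of 0.44 (SE 0.078), from 12.0 to 16.6 FPKM, below the threshold, and Rdh12, Abca4, Rbp3, Rdh11, Rdh5 and Lrat lay between -0.10 and 0.07. The rod markers present in that fraction had a median of -0.22 over 13 genes, of which 6 were lower past the threshold and none was higher, and 6 of 11 bipolar cell markers were lower, with a median of -0.60. Rpe65 had a log2 ratio of -0.52 (SE 0.11), from 0.89 to 0.32 FPKM, which passed the threshold as soon as the pseudocount was 0.1 or absent.

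**Figure D3:**
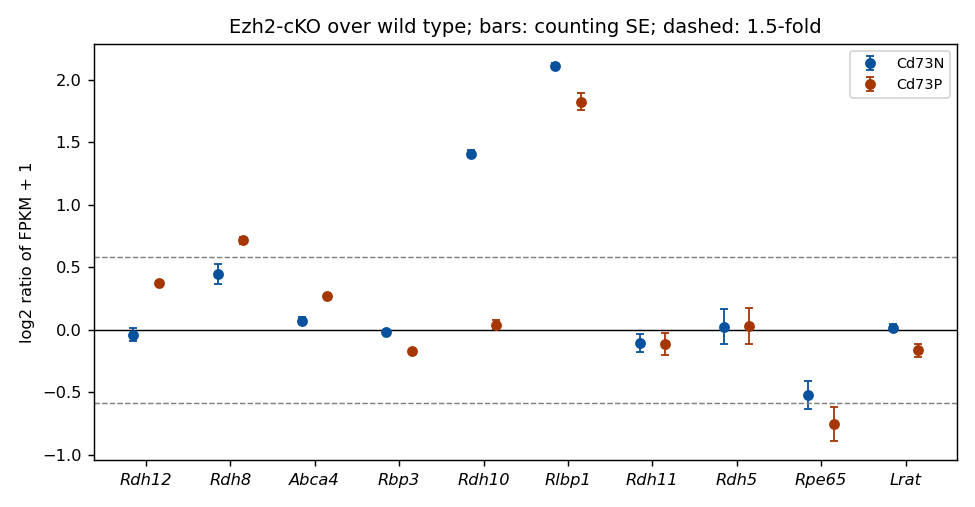
Log2 ratio of FPKM + 1, library labelled Ezh2-cKO over wild type, for each visual cycle gene in Cd73N (blue) and Cd73P (orange), with the counting SE as bars and dashed lines at 1.5-fold. Rlbp1 is past the upper line in each fraction, Rdh10 in Cd73N, Rdh8 in Cd73P, and Rpe65 is past the lower line in Cd73P.

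In Cd73P, the rod fraction, 2 members were higher in the library labelled Ezh2-cKO (Rdh8 and Rlbp1) and 1 was lower (Rpe65), against 2.26% and 2.39% of all genes, or 4.31% and 4.54% without genes below 1 FPKM. Rdh8 went from 78.3 to 129 FPKM, 1.65-fold, a log2 ratio of 0.71 (SE 0.030). Rdh12 and Abca4 were higher below the threshold, with log2 ratios of 0.37 (SE 0.014) and 0.27 (SE 0.011). Rbp3 had a ratio of -0.17 (SE 0.0054), the only one of the 4 photoreceptor genes with a lower level in that library.

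Rod markers gave the scale for these values. Over 12 rod markers with usable values the median log2 ratio in Cd73P was 0.35, with a range of -0.32 to 1.31, 2 past the threshold (Gnat1 and Pde6a), and a summed level of 21602 FPKM in wild type and 29794 FPKM in Ezh2-cKO. Rdh12 and Abca4 lay 0.02 above and 0.08 below that median, Rdh8 lay 0.36 above it and Rbp3 0.52 below it. All 4 were inside the range of the rod markers. Markers of other neurons were lower in the same library, 8 of 9 for cones (median -0.99) and 9 of 10 for bipolar cells (median -1.80).

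Rlbp1 in Cd73P went from 6.54 to 25.7 FPKM, 3.93-fold (log2 ratio 1.82, SE 0.067). The 12 Müller glia markers compared there were all above 0, 9 of them past the threshold, with a median of 0.88 and a range of 0.35 to 2.24, and the summed level of the 15 markers was 344 and 541 FPKM. Rlbp1 lay 0.94 above their median, and of these markers only Dkk3, the gene after which the Cre line is named, had a higher ratio (2.24). Rdh10, at 35.2 and 36.2 FPKM, had a ratio of 0.04 (SE 0.043) in Cd73P, or -0.02 under sum scaling, and the difference between fractions in its genotype ratio was -1.37 (SE 0.053). Carry-over of glia into Cd73P was not tested as a part of the Rlbp1 value.

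Rpe65 in Cd73P went from 2.66 to 1.17 FPKM (log2 ratio -0.75, SE 0.14) and was the 1 member below the lower line. The ratio was -0.31 with a pseudocount of 5, which is within the threshold, and -1.12 with a pseudocount of 0.1. Over 8 pigment epithelium markers compared in Cd73P, 2 were higher and 2 lower past the threshold, with a median of -0.14. Dct went from 11.3 to 6.63 FPKM and Rgr, a retinal-binding opsin of pigment epithelium and glia, from 4.34 to 2.04 FPKM, while Ttr stood at 32.7 and 31.4 FPKM and Pmel at 8.34 and 6.98 FPKM. The 2 higher markers were Trpm3 (log2 ratio 0.63) and Rrh (0.64), which were also the pair with higher levels in Cd73N and were higher in Cd73N Ezh2-cKO (2.05 and 1.61) along with the Müller glia markers.

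**Figure D4:**
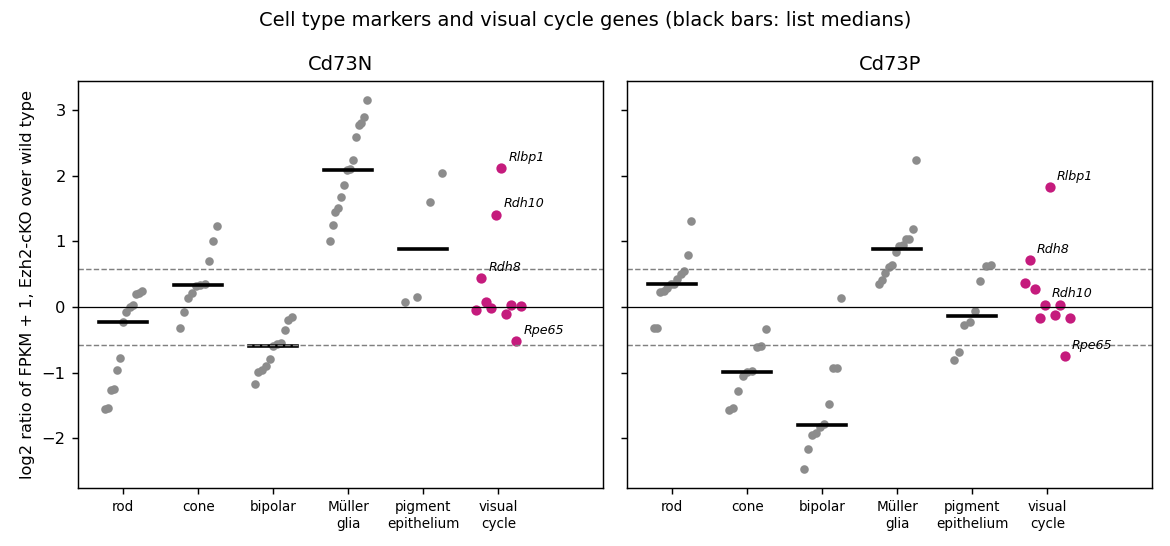
Log2 ratio of FPKM + 1, Ezh2-cKO over wild type, in Cd73N (left) and Cd73P (right). Each grey point is 1 marker gene that reached 1 FPKM in at least 1 library of the pair, black bars are list medians, pink points are the 10 visual cycle genes and dashed lines mark 1.5-fold. In Cd73N, Rlbp1 (2.11) sits at the Müller glia median (2.09), and in Cd73P it sits above it (1.82 against 0.88).

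Other genes of retinoid handling were read from a list of 49 symbols, of which 46 were in the tables. Within Cd73N, 9 were higher and 2 lower in the library labelled Ezh2-cKO (median log2 ratio 0.09), against 7.18% and 1.71% of all genes. In Cd73P 4 were higher and 3 lower, with a median of 0.00, against 2.26% and 2.39% of all genes. The highest log2 ratios in Cd73N were those of Cyp26a1 and 3 Aldh1a genes, among them Aldh1a2, whose wild-type value was listed at 0 against 3.47 FPKM for Ezh2-cKO. Cyp26a1, which degrades retinoic acid, was at 3.04 and 35.4 FPKM among Cd73N cells (log2 ratio 3.17, SE 0.099). Aldh1a1, which makes retinoic acid from retinal, went from 24.5 to 105 FPKM, a ratio of 2.06 (SE 0.042), and its relative Aldh1a7 from 2.15 to 12.8 FPKM. Aldh1a1 in Cd73P went from 1.09 to 7.53 FPKM, a ratio of 2.03 (SE 0.11).

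Other genes of the list were less uniform. Rrh went from 12.4 to 39.9 FPKM in Cd73N, Dhrs3, a retinal reductase, from 3.27 to 6.57 FPKM, and Dhrs7 from 12.9 to 20.8 FPKM. Fabp5, which binds fatty acids and retinoic acid, was lower in each fraction, at 88.9 and 58.6 FPKM for Cd73N, where its log2 ratio of -0.59 lay at the edge of the threshold, and at 16.8 and 8.57 FPKM for Cd73P.

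Between wild-type fractions, 5 of the 46 genes were higher in Cd73P and 12 were lower, with a median of -0.03, near the shares of all genes (9.07% and 27.9%). The Ezh2-cKO fractions gave 4 higher and 16 lower (median -0.27), against 8.4% and 29.1% of all genes. Dhrs3 was at 66.7 FPKM in Cd73P wild type against 3.27 in Cd73N, a log2 ratio of 3.99 (SE 0.088), wider than that of Rdh12. In the libraries labelled Ezh2-cKO the order was reversed, with 3.41 for Dhrs3 and 4.26 for Rdh12. In wild type, the retinoid receptor Rxra was at 21.3 (Cd73P) and 2.74 FPKM (Cd73N), a ratio of 2.57. Its relative Rxrg was at 0.98 and 5.62 FPKM, a ratio of -1.74. Aldh1a1 (-3.61), Rrh (-2.76), Fabp5 (-2.33), Dhrs4 (-1.45) and the alcohol dehydrogenase gene Adh5 (-1.30) had negative wild-type log2 ratios past the threshold. Degs1, proposed to isomerise retinol for cones, was past it only in the libraries labelled Ezh2-cKO, at -0.67.

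**Figure D5:**
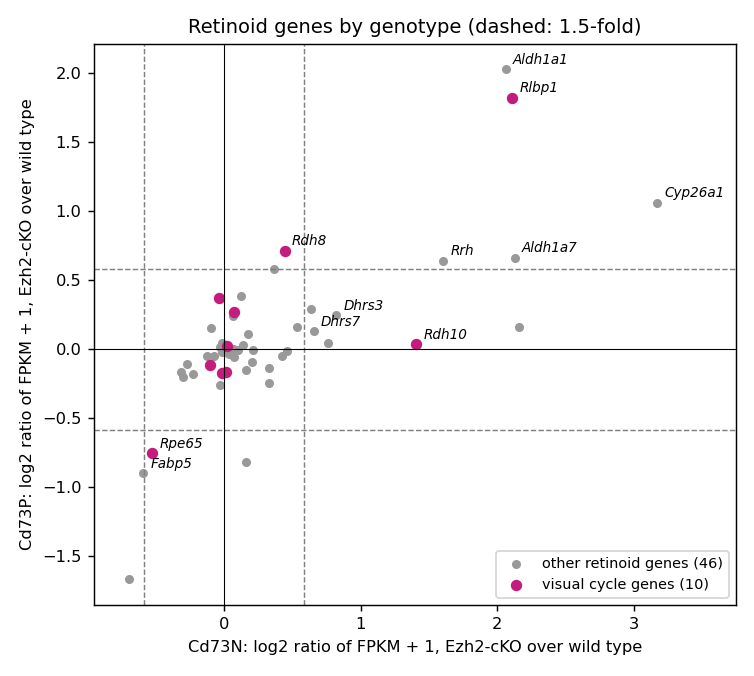
Log2 ratio of FPKM + 1, Ezh2-cKO over wild type, in Cd73N (horizontal) against Cd73P (vertical) for 46 other retinoid genes (grey) and the 10 visual cycle genes (pink), dashed lines at 1.5-fold. Rlbp1 and Aldh1a1 lie near each other at the upper right (2.11 and 1.82, 2.06 and 2.03), and Rdh10 lies at the right with a Cd73P value near 0 (0.04).

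For the 6 members at FPKM of at least 10 and past the threshold in any comparison, the 3 genes with the most similar pattern over the 4 libraries were found among 7598 genes, by the Euclidean distance of log2 values centred on each gene's mean. With 4 points per gene such likeness is a description only. Abca4 lay nearest to Rp1l1 (distance 0.053), Fam57b and Fam161a, and Rdh12 nearest to Prph2, the disc-rim protein peripherin (0.10), Ppargc1b and Dynlrb2. Rdh8 lay nearest to Rabgef1 (0.13), Dpf3 and St3gal1. Rbp3 lay nearest to Ccdc163 (0.054), Cdca4 and Tiparp. Rdh10 lay nearest to Ppp1r15a (0.12), Abca5 and Cdon. The neighbours of Rlbp1, Hopx (0.35), Cp and Fxyd1, were farther away than those of any other member.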

How the data were processed

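Poly(A) RNA of sorted retinal cells was sequenced as 36-base single-end reads, 1 library for each of 4 groups, as named in the titles. The authors aligned reads to mm9 with TopHat 2.0.8b, allowing multiple hits, and computed FPKM with Cufflinks 2.1.1 on RefSeq genes. The deposited FPKM values, their bounds and a status were used as given, without scaling between libraries. bcl2fastq 1.8.4 is also named in the submitters' processing notes. Read totals are not in the tables, so depth is unknown. Relative to Cd73N wild type, depth inferred from the width of the bounds over 3473 genes was 1.17, 1.00034 and 1.04 for Cd73N Ezh2-cKO, Cd73P wild type and Cd73P Ezh2-cKO.

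Rows of 1 symbol were summed, 730 small RNA symbols were left out, and genes without status OK in the 2 libraries of a comparison were not compared. All 40 values of the members had status OK. In 20 of them the upper bound, and in 1 the lower bound, did not enclose the FPKM. The SE, bound width divided by 4, is therefore approximate. No test across libraries was possible with 1 library per group. Promoter windows were read from the NCBIM37 genome with strands from GENCODE vM1. Scripts (Python 3.11.15, pandas 2.3.3) were tested on simulated data. Genes named beside the members were Ezh2, Nt5e, markers, retinoid genes past 1.5-fold that reached 5 FPKM in at least 1 library of the pair, and the 3 nearest patterns for each of 6 members. Some genes that this rule names are not reported here. The members, lists and tests were chosen with earlier results of these data known.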

Additional observations from a re-analysis of the deposited data

Results flagged for a closer look

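Results whose direction differed between the fractions, or between the genotypes, are given here for the 10 members at any level. They are also given for other genes named above that reached 1 FPKM in each pair of libraries, except the nearest-pattern genes. With 1 library per genotype and fraction, no such difference was tested, and ratios near 0 can change sign with scaling. Among the members, Rdh12 had a log2 ratio of Ezh2-cKO over wild type of -0.04 (Cd73N) and 0.37 (Cd73P), which differ by 0.41. Its Cd73N value was 0.04 under median scaling and 0.11 under sum scaling, so the opposite direction is lost there. Lrat, below 1 FPKM throughout, had 0.02 (Cd73N) and -0.17 (Cd73P), a difference of -0.18.

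Among the other genes, the genotype ratio of the rod gene Gnat1 differed by 2.09 (-0.78 in Cd73N and 1.31 in Cd73P), that of Rgr by -0.97 (0.16 and -0.81) and that of Ezh2 by -0.69 (0.17 and -0.52). The differences were -0.58 for Degs1, -0.47 for Dhrs4, -0.47 for Rxra and -0.13 for Ttr, each positive in Cd73N and negative in Cd73P. Over markers compared in both fractions, the median differed by 0.50 for 12 rod markers (-0.15 and 0.35) and by -1.33 for 9 cone markers (0.34 and -0.99). The 4 pigment epithelium markers compared in both had medians of 0.88 and 0.29. Of these, Rgr and Ttr changed direction, as given above. Trpm3 (2.05 and 0.63) and Rrh (1.61 and 0.64) were positive in each fraction. The ratio of Cd73P over Cd73N was positive in wild type and negative in Ezh2-cKO for Rgr (0.80 and -0.17, a difference of -0.97) and for Slc16a1, a lactate transporter in the Müller glia list (0.83 and -0.34, a difference of -1.16).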

How the results depend on the processing

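Counts of members past the threshold were recomputed under 8 other settings and 1 chosen after seeing the data, the ratio without a pseudocount. Of 72 recomputed counts 65 stayed within 1.5 times. The calls of Rlbp1, Rdh10 in Cd73N, Rdh12, Abca4 and Rbp3 were not among the exceptions. The setting that admitted genes of every status could not change a count, because all member values had status OK. No log2 ratio past the threshold changed sign in 200 recomputed ratios, but these settings could not have changed one. A different pseudocount cannot alter the sign of a ratio, and the scaling shifts, at most 0.43 (log2), were smaller than the threshold. The unchanged signs are therefore no check of the calls. In Cd73N the number of lower members was 1 in place of 0 with a pseudocount of 0.1 and also without a pseudocount (Rpe65, -1.25 and -1.49). In Cd73P the number of lower members was 0 in place of 1 with a pseudocount of 5, with a 2-fold threshold and with FPKM of at least 5, and 2 without a pseudocount (Rpe65 and Lrat). In Cd73P the number of higher members was 1 in place of 2 with a 2-fold threshold, where Rdh8 was lost. Between fractions, in each genotype, Rpe65 was also lost with a pseudocount of 5, a 2-fold threshold or FPKM of at least 5, and Lrat was added with a pseudocount of 0.1 or none. The Cd73P ratio of Rpe65 was -0.31 with a pseudocount of 5 and -1.19 without one, so its size rests on a level of a few FPKM. Scaling changed the sign of 17 of the 200 recomputed ratios, all of them within the threshold. A ratio that changed sign under both median and sum scaling was counted for each, so fewer than 17 distinct ratios were involved. Median scaling changed FPKM in Cd73P relative to Cd73N by 0.31 (log2) in wild type and 0.27 in Ezh2-cKO, and sum scaling by 0.43 and 0.22. Sum scaling changed FPKM in Cd73N Ezh2-cKO relative to wild type by 0.15. Ratios of FPKM + 1 moved less for low genes, as for Lrat in wild type (0.33 to 0.38 under median scaling). No paired analysis was possible because each group had 1 library. Absolute depth is unknown, which leaves Lrat and Rpe65 the least certain members.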
